A study of Mus musculus with 8 samples.

Results

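The epididymal fat of DU6 mice was compared with that of DUKs mice on Affymetrix arrays, chip A with chip A and chip B with chip B. The comparison used 4 of the 8 arrays of the series, and all 13069 probe sets of both chips that are no hybridisation control. DU6 is an outbred line bred over many generations for high body weight, and DUKs is its unselected control line. These descriptions of the lines are general knowledge, since the labels name only selected mouse lines and the topics adiposity, diabetes, insulin and leptin. No allele or treatment is given for either line. For each line the RNA of 20 males at an age of 42 days was mixed into 1 pool, which was hybridised to 1 array of each chip. There is therefore 1 pool and no replicate per line, no spread between animals can be seen, and no test and no p-value can be given. The other 2 lines of the series, the inbred DU6i, derived from DU6, and DBA, an inbred strain, have pools of the same kind, and their signals are named only to place those of DU6 and DUKs.

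White fat stores triglyceride in adipocytes. Lipoprotein lipase on the wall of the capillaries releases fatty acids from circulating lipoproteins, adipocytes take them up and esterify them, and hormone-sensitive lipase takes part in their release on demand. Adipocytes also secrete hormones such as leptin, adiponectin and resistin. Around them lie progenitor cells and fibroblasts that make the extracellular matrix, blood vessels, and macrophages that clear dead adipocytes and take up iron. The epididymal pad lies against the epididymis and the testis of the male, whose germ cells and duct epithelium express many transcripts found in hardly any other tissue.

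Array signals are linear and can fall below 0. A signal floor was therefore set at 1022.8 on chip A and 2258.25 on chip B, the 95th percentile of the sizes of the negative signals of a chip. Of the 13069 probe sets 5604 were above it in DU6, DUKs or both and are called measured. Signals above the floor numbered 3264 on chip A and 1639 on chip B in DU6, and 3334 and 1818 in DUKs. Where 1 of the pools is at or under the floor, a fold difference is a lower bound and is written with "at least". Such a gene is measured through the other pool alone, so that the direction of its ratio is fixed by this filter. Genes and probe sets were counted at a difference of 2-fold, which is a choice of size with no test behind it. The technical error was read from 346 genes with a pair of probe sets above the floor in both pools. It gave a standard deviation (SD) of 0.44 for a single log2 ratio of DU6 over DUKs, a factor of 1.36, so that 2 SD correspond to 1.84-fold. This error covers differences between probe sets, and neither the spread between animals nor that between pools.

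The DU6 and DUKs arrays differed in 2 ways that bear on the ratios. The brightest signals of chip A were dimmer in DU6, with a 99th percentile of 18810 against 27552 in DUKs. The 231 chip A probe sets with a mean signal of 16000 or more had a median log2 ratio of -0.48, while the medians of the dimmer classes lay between 0.05 and 0.19. On chip B the 389 probe sets as bright had a median of 0.07. Second, the control probe set in the middle of the pyruvate carboxylase mRNA had 15.3% of the signal of the 3′ probe set in DU6 and 53.9% in DUKs on chip A, and 12.7% and 55.6% on chip B. The 3′ to 5′ ratio of the actin control was 2.12 in DU6 and 1.73 in DUKs on chip A and 2.75 and 1.66 on chip B. For Gapdh it was 0.90 and 1.18 on chip A and 1.44 and 1.41 on chip B. What part these differences have in the gene ratios was not tested. Values after quantile normalisation, which gives both arrays of a chip the same range of signals, are given beside many of the bright genes. Of the 153 named genes at 2-fold 139 were still at 2-fold after it, and all 153 kept their direction.

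By the rule of size 219 probe sets were higher in DU6 (3.91% of 5604) and 353 were lower (6.3%). When each chip was centred on its median log2 ratio these numbers were 160 and 416, so that the share of higher calls was 27.8% in place of 38.3%. At 4-fold or more there were 11 higher and 58 lower. Probe sets with 1 gene symbol stood for 3512 measured genes, the brightest probe set of a gene being used. Of these genes 141 were higher in DU6 by 2-fold or more (4.01%) and 186 lower (5.3%). The median log2 ratio over all genes was 0.10, and 2063 genes (58.7%) lay above 0. These shares of all genes (58.7% above 0, 4.01% higher and 5.3% lower) are the background for the list counts below. The ratios of 2088 genes (59.5%) lay within 1 SD of 0. Of the 186 lower genes 30 belonged to the lists of germ cell or male tract markers, and of the 141 higher genes 1 did. These lists held 30 and 10 of the 3512 measured genes, and a part of them was measured through DUKs alone. Of the other lower and higher genes, 110 of the lower and 94 of the higher were in none of the 44 gene lists that were examined.

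**Figure D1:**
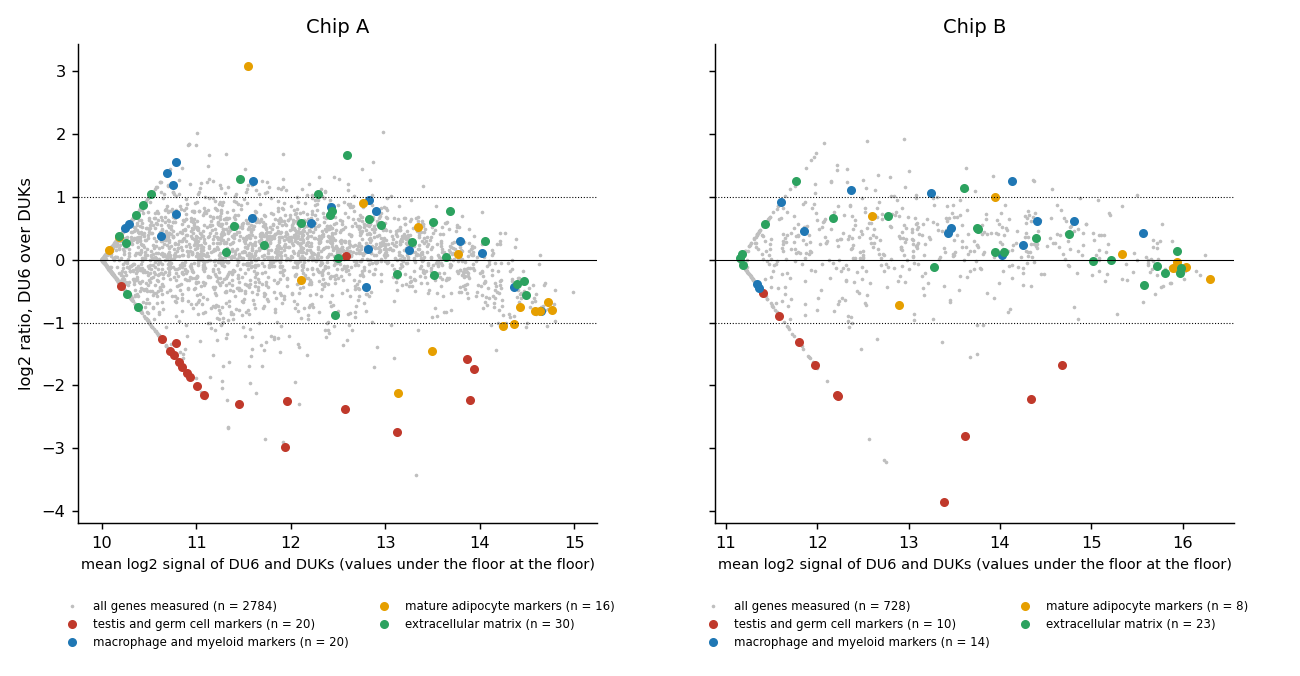
The log2 ratio of DU6 over DUKs (vertical axis) against the mean log2 signal of both pools (horizontal axis) for each measured gene of chip A (2784 genes) and chip B (728 genes). Coloured points are 4 gene lists, dotted lines mark 2-fold, and the diagonal edges at the left hold genes with 1 pool at the floor. Germ cell markers lie along the lower edge, macrophage markers mostly above 0, and the brightest genes of chip A, several adipocyte markers among them, mostly below 0.

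Adipocyte transcripts were abundant in both pools. All 24 mature adipocyte markers on the chips were measured, and all 24 were above the floor in DU6 and 21 in DUKs. Of the 24, 9 lay above 0 and 15 below, while 58.7% of all genes lay above 0. By 2-fold or more 2 were higher in DU6 and 4 lower, beside 4.01% and 5.3% of all genes. The median log2 ratio was -0.22 against 0.10 for all genes. The 16 markers on chip A had a median of -0.71 and the 8 on chip B one of -0.08. After quantile normalisation the list median was -0.0097. The chip A median of -0.71 stands beside -0.48 for all chip A probe sets with a mean signal of 16000 or more, and the part of that shift in it was not tested.

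Adig, also called adipogenin, a small protein of adipocytes linked to their differentiation, stood furthest out among the adipocyte markers. Its signal was 8680 in DU6 and 288 in DUKs, at least 8.49-fold higher in DU6. DU6i had 4730 and DBA 10986, so that DUKs was the only line of the 4 under the floor. The 200 bases before the start of Adig (RefSeq, GRCm38.p6, chr2:158502412-158502611, plus strand) are shown because they hold the only match among the adipocyte markers to a half-site pair of the kind that the adipocyte receptor Pparg binds with its partner. They are printed 5′ to 3′, with the match to AGGTCA, any base, AGG in capitals, which begins 154 bases before the start.
Adig: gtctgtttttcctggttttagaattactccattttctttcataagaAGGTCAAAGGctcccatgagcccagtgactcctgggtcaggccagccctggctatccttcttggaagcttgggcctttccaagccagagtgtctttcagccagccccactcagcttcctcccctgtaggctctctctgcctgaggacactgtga
The match occurs in 1 of the 16 adipocyte markers with a promoter in the table, 0.602% of 2822 measured genes and 0.454% of 32851 promoters. It also occurs in 1 of 22 germ cell markers, Hspa1l, which was lower in DU6 (log2 ratio -1.52). It is a match of letters, searched on both strands, and no binding was measured.

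Other adipocyte markers were lower in DU6. Cavin1, a coat protein of the caveolae that stud the adipocyte membrane, had 4327 in DU6 and 18733 in DUKs, 4.33-fold lower. DU6 was the low pool of the 4, with 29379 in DU6i and 17780 in DBA. Lpl, the lipoprotein lipase, had 7000 and 19095, 2.73-fold lower in DU6, and again the other 2 lines were higher, at 27218 and 15474. These differences remained after quantile normalisation, at 4.54-fold for Cavin1 and 2.83-fold for Lpl. Lipe, the hormone-sensitive lipase, had 14763 and 30054, 2.04-fold lower and 1.64-fold after quantile normalisation. Retn, which encodes resistin, had 13502 and 28046, 2.08-fold lower and 1.80-fold after quantile normalisation. Both Lipe and Retn thus kept their direction and were no longer at 2-fold.

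Several core genes of the adipocyte were close in the pools. Fasn, the fatty acid synthase, had 61926 in DU6 and 63666 in DUKs. Gpd1, which supplies the glycerol backbone of triglyceride, had 64796 and 70092, and Cidec, of the lipid droplet, 58259 and 63613. Pparg, the master transcription factor of adipocytes, had 3935 and 4914, a log2 ratio of -0.32 that is within 1 SD of 0. Adipoq, the gene of adiponectin, had 21044 and 36670, a log2 ratio of -0.80 and of -0.17 after quantile normalisation. Fabp4, the main fatty acid carrier of adipocytes, had -0.68 and -0.04 in the same order. Quantile normalisation thus brought Adipoq and Fabp4 closer to 0 without a change of direction, and Pparg had -0.45 under it.

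Among the genes that take up, store and release lipid, 11 of 21 lay above 0 (58.7% of all genes did), with a median of 0.02. By 2-fold or more 1 was higher and 5 were lower, beside 4.01% and 5.3% of all genes. The chip A members had a median of -0.68. Besides Lpl and Lipe the lower genes were Fabp3, the muscle type fatty acid carrier (1519 in DU6 and 6625 in DUKs, 4.36-fold), Slc27a1, a fatty acid transporter (3559 and 7726, 2.17-fold, and a log2 ratio of -0.56 by a second probe set), and Scarb1, the receptor for high density lipoprotein (631 and 3226, at least 3.15-fold). Fabp3 was high in DUKs alone, since DU6i had 472 and DBA 990. Scarb1 was low in DU6 alone, with 3901 in DU6i and 3212 in DBA. The higher gene was Fabp5, a second fatty acid carrier of adipocytes and macrophages, with 32775 in DU6 and 13759 in DUKs, 2.38-fold and still past 2-fold after quantile normalisation. DUKs was the lowest pool for Fabp5, with 33300 in DU6i and 26032 in DBA.

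Most genes of fatty acid oxidation had ratios above 0. Of its 22 genes 19 lay above 0 (58.7% of all genes did), 1 was at least 2-fold higher, a share near the 4.01% of all genes, and none lower, and the median was 0.26 (0.36 after quantile normalisation). Decr1, a reductase needed to oxidise unsaturated fatty acids, had 11400 in DU6 and 4182 in DUKs, 2.73-fold higher. Slc25a20, the carrier of acylcarnitine into mitochondria, had 7894 and 4708 (log2 ratio 0.75, and 0.26 by a second probe set), and Cpt1a, which commits fatty acids to oxidation, 9469 and 5880 (0.69). Acadvl and Acat1, at 0.63 and 0.65, take part in the first and the last step of the cycle. In these genes DU6 was the higher pool by less than 2-fold.

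Fatty acid synthesis held 2 genes at 2-fold or more among 17, both higher in DU6, and a median of -0.04. Of all genes 4.01% were higher and 5.3% lower. Elovl6, which lengthens palmitate to stearate, had 6566 and 3023, 2.17-fold higher. Thrsp, a protein that promotes lipogenesis, had 22414 and 11173, 2.01-fold higher and 1.80-fold after quantile normalisation. Of the 13 genes of the citric acid cycle 9 lay above 0 with a median of 0.26. Of the 45 of the respiratory chain 26 did, near the 58.7% of all genes, with a median of 0.11. Cox8b, a heart and brown fat form of a cytochrome oxidase subunit, had 3667 in DU6 and 845 in DUKs, at least 3.58-fold higher, and DUKs was the only line under the floor. Ucp1, the defining protein of brown adipocytes, was under the floor in both pools.

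In carbohydrate metabolism no gene of glucose transport or glycolysis was 2-fold higher in DU6, and 3 of 17 were 2-fold lower. Of all genes 4.01% were higher and 5.3% lower. Slc2a3, a glucose transporter of neurons and germ cells, had 1000 and 6529, at least 6.38-fold lower in DU6, and a log2 ratio of -0.90 by a second probe set. Pgam1, a glycolytic mutase, was at least 3.31-fold lower. Slc2a4, the insulin-dependent glucose transporter of fat and muscle, had 7895 in DU6 and 4869 in DUKs, a log2 ratio of 0.70, and 0.54 by a second probe set. Gys1, the glycogen synthase of muscle and fat, had 10413 and 4075, 2.56-fold higher. Fbp1, an enzyme of gluconeogenesis, had 695 and 4412, at least 4.31-fold lower. Slc2a4, by less than 2-fold, and Gys1 were thus higher in DU6, and Slc2a3 and Fbp1, both under the floor in DU6, were lower.

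The hormones of the adipocyte showed no common direction, with 7 of 13 above 0, beside 58.7% of all genes, and a median of 0.09. Lep, which encodes leptin, had 12446 in DU6 and 8696 in DUKs, a log2 ratio of 0.52 and of 0.51 after quantile normalisation, or 1.43-fold. The range over the other 2 lines was wider, from 3837 in DBA to 27777 in DU6i. Saa3, an acute phase protein of fat, had 6684 and 16602, 2.48-fold lower in DU6, and a log2 ratio of -1.74 by a second probe set. In growth hormone and insulin signalling 9 of 19 genes lay above 0, none was 2-fold higher and 2 were lower. Of all genes 58.7% lay above 0, 4.01% were higher and 5.3% lower. Ghr, the growth hormone receptor, had 1534 and 3710, 2.42-fold lower, and Igfbp7, a secreted binding protein of insulin-like growth factors, 13168 and 27471, 2.09-fold lower and 1.84-fold after quantile normalisation. Igf1 had 3960 and 3736, a log2 ratio of 0.08.

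Of the adipogenic transcription factors 12 of 17 lay above 0, beside 58.7% of all genes, with a median of 0.41. All 17 were above the floor in DU6 and 14 in DUKs. Those under it in DUKs, Cebpb among them, could only lie above 0. Cebpb, an early factor of adipocyte differentiation, had 7288 in DU6 and 2017 in DUKs, at least 3.23-fold higher, and Cebpd, its partner, had 5450 and 2956, a log2 ratio of 0.88. Cebpa, a late factor, had 5948 and 9751, a log2 ratio of -0.71. Klf2, which restrains adipogenesis and marks resting endothelium, had 2274 and 6300, 2.77-fold lower, and was the lowest in DU6 of the 4 lines. Of these 4 factors, Cebpb and Klf2 were past 2-fold and Cebpd and Cebpa were not.

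**Figure D2:**
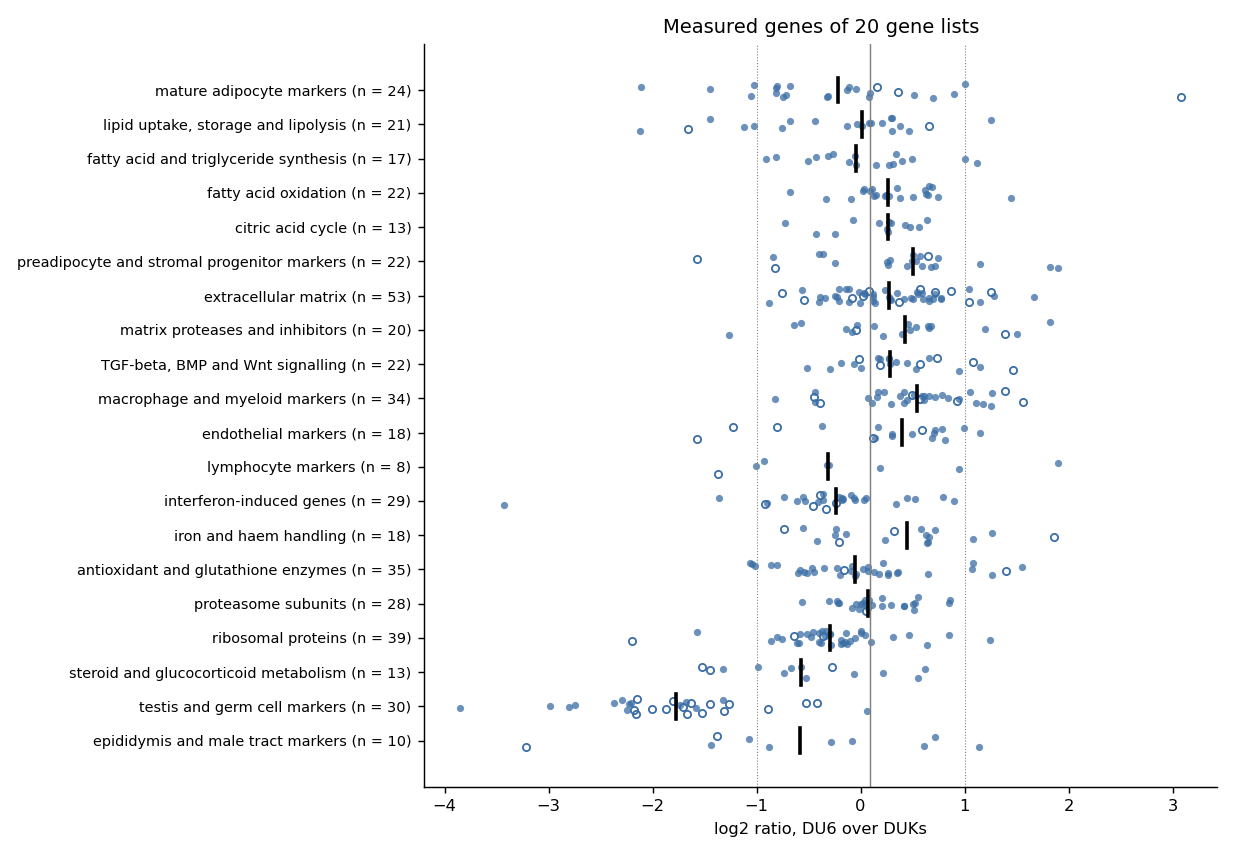
Each point is the log2 ratio of DU6 over DUKs of 1 measured gene, in 20 gene lists (rows), open where 1 pool was at or under the floor. Black bars are list medians, the grey line the median of all genes (0.10), and dotted lines mark 2-fold. The germ cell list is centred at -1.77, the macrophage list at 0.54 and the adipocyte list at -0.22.

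Markers of progenitor and stromal cells were mostly higher in DU6. Of 22 measured, 16 lay above 0, beside 58.7% of all genes. By 2-fold or more 3 were higher and 1 lower, beside 4.01% and 5.3% of all genes. The median was 0.50 (0.42 after quantile normalisation), against 0.10 for all genes. Thy1, a surface protein of stromal progenitors and T cells, had 11537 in DU6 and 3102 in DUKs, 3.72-fold higher, with DU6i (5622) and DBA (5974) between them. Htra3, a secreted protease that binds growth factors, had 3846 and 1089, 3.53-fold higher. Sfrp2, a secreted modulator of Wnt signals, had 3832 and 1727, 2.22-fold higher. DU6 was the highest of the 4 lines for all 3 of these genes. Pdgfra, the receptor that defines fat progenitors, had 2660 and 2210, a log2 ratio of 0.27, within 1 SD of 0. Cd34, a marker of progenitors and endothelium, went the other way, with 2056 in DU6 and 6702 in DUKs, at least 2.97-fold lower, and was under the floor in DU6 alone.

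Of 53 measured genes of the extracellular matrix 36 lay above 0 and 6 were at least 2-fold higher, against 58.7% and 4.01% of all genes, and none was 2-fold lower, with a median of 0.27. On chip B alone the median was 0.12, close to that of all genes. Above the floor were 50 in DU6 and 45 in DUKs, and those under it in DUKs could only lie above 0. Fmod, a proteoglycan that binds collagen fibrils, had 10972 in DU6 and 3464 in DUKs, 3.17-fold higher, and 7529 and 2223 by a second probe set on the other chip. Matn2, a filament-forming matrix protein, had 4408 and 1811 (2.43-fold), and Tnxb, which spaces collagen fibrils, 18542 and 8379 (2.21-fold, with a log2 ratio of 0.79 by a second probe set). Nid2, of the basement membrane, was at least 2.38-fold higher, Thbs2 at least 2.07-fold and Tgfbi 2.06-fold, the last 2 under 2-fold after quantile normalisation (log2 ratios 0.98 and 0.95). The main fibrillar collagens were not among them. Col1a1 had 51869 and 55867 and Col3a1 59839 and 69038, log2 ratios of -0.11 and -0.21. By these probe sets both collagens were within 1 SD of 0. Further sets had -0.23 and -0.65 for Col1a1, the latter beyond 1 SD, and 0.31 for Col3a1.

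The proteases and inhibitors that remodel the matrix included 4 of 20 at least 2-fold higher and 1 lower, with a median of 0.42. Of all genes 4.01% were higher and 5.3% lower. Timp1, an inhibitor of metalloproteinases, had 8033 in DU6 and 2838 in DUKs, 2.83-fold higher, whereas Timp2, of the same family, had 4159 and 10020, 2.41-fold lower. Mmp12, the elastase of macrophages, had 2674 and 509, at least 2.61-fold higher, and Adam8, of myeloid cells, 2965 and 1291, 2.30-fold higher. Of the genes of TGF-beta, BMP and Wnt signalling 17 of 22 lay above 0 and 3 were at least 2-fold higher. Beside them stand 58.7% and 4.01% of all genes. Above the floor were 21 in DU6 and 17 in DUKs, and those under it in DUKs could only lie above 0. Inhbb, the beta B subunit of activin, made by adipocytes, was at least 2.76-fold higher, and Fzd4, a Wnt receptor, at least 2.12-fold.

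Macrophage markers lay higher in DU6 across the list. Of 34 measured, 29 lay above 0 and 7 were at least 2-fold higher, against 58.7% and 4.01% of all genes, none was 2-fold lower, and the median was 0.54 (0.48 after quantile normalisation, 0.58 on chip A and 0.48 on chip B). Above the floor were 32 in DU6 and 29 in DUKs, and those under it in DUKs could only lie above 0. Csf1r, the receptor for the growth factor of macrophages, had 13955 in DU6 and 6720 in DUKs, 2.08-fold higher. Spi1, the transcription factor that sets myeloid fate, had 2595 and 1144 (2.27-fold), Mpeg1, a pore-forming protein of macrophages, 7760 and 3600 (2.16-fold), and Lgals3, the lectin galectin-3, 27658 and 11603 (2.38-fold). The chemokine Ccl6 had 3016 and 1020, at least 2.95-fold higher. Syk, a kinase of immune receptors that is in none of the lists, was at least 3.12-fold higher.

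The general macrophage markers differed less. Adgre1, a surface receptor of mature macrophages, had 4322 and 3161 (log2 ratio 0.45), Cd68 3861 and 2442 (0.66), Mrc1 12807 and 9567 (0.42) and Cd14 13453 and 9439 (0.51). The complement genes C1qa, C1qb and C1qc, made by tissue macrophages, had log2 ratios of 0.07, 0.23 and 0.61, and further probe sets of C1qb had -0.06 and 0.85. Lyz2, the lysozyme of macrophages and a bright chip A gene, had 19244 and 34013 (-0.82, and -0.27 after quantile normalisation), and Ptprc, the common leukocyte antigen, 6133 and 8285 (-0.43). The summed signal of the list was 398953 in DU6 and 314009 in DUKs, and Cd86, Cyba, Cybb, Fcgr1, Marco, Ncf1 and Ncf4 were under the floor in both pools. In pooled tissue RNA a larger number of cells of a type and more RNA per cell cannot be told apart.

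Other cell types moved less or in mixed directions. Endothelial markers had 14 of 18 above 0, beside 58.7% of all genes, and a median of 0.40. Tek, the angiopoietin receptor, had 3139 and 1416, 2.22-fold higher in DU6, and Eng, a co-receptor of endothelium, 34316 and 19910 (log2 ratio 0.79). Cd34 and the adhesion molecule Selp went the other way, Selp by at least 2.34-fold with a second probe set at -0.15. Smooth muscle markers had a median of 0.13 with no gene at 2-fold. Of 30 lymphocyte markers on the chips only 8 were measured, and Cd3e, Cd4, Cd8a and Cd79a were under the floor in both pools. The measured ones pointed both ways. Ighm, the heavy chain of IgM, had 47733 and 24835 (log2 ratio 0.94), Ms4a1, the B cell antigen CD20, 3185 and 6080 (-0.93), and Jchain, of plasma cells, 919 and 2638, at least 2.58-fold lower in DU6.

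Some neutrophil genes were lower in DU6. Ngp, a granule protein, had 2072 and 4444, 2.14-fold lower in DU6, and S100a9, a calcium-binding protein of neutrophils, 654 and 2146, at least 2.10-fold lower. Its partner S100a8 had 3572 and 2923 (log2 ratio 0.29, and 0.45 by a second probe set), so the pair of genes did not move together. In 7 measured neutrophil and mast cell genes the median was -0.24, and 13 of the 20 on the chips, Mpo and Elane among them, were under the floor in both pools. All 7 were above the floor in DUKs and 4 in DU6, and those under it in DU6 could only lie below 0.

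Most interferon-induced genes had ratios a little below 0. Of 29 measured, 7 lay above 0, beside 58.7% of all genes. None was 2-fold higher and 2 were lower, near the 5.3% of all genes, with a median of -0.23 (-0.25 after quantile normalisation). All 29 were above the floor in DUKs and 24 in DU6, and those under it in DU6 could only lie below 0. Ifi27, which encodes a mitochondrial protein induced by type I interferon, had 3127 in DU6 and 33667 in DUKs, 10.8-fold lower. DU6 was the low pool of the 4 here, with 44633 in DU6i and 21161 in DBA. Iigp1, an interferon-gamma-induced GTPase that attacks intracellular parasites, had 2056 and 5268, 2.56-fold lower, and Ly6e 15417 and 28679, a log2 ratio of -0.90 and of -0.56 after quantile normalisation. The antiviral genes Isg15 (2782 and 2904), Irf1 (5067 and 5242) and Ifit3 (2940 and 3324) were nearly level, so that the difference of Ifi27 was not shared by the list.

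The promoters of 3 interferon-induced genes are shown to set the transcription factor site of this family beside its values, since Igtp, whose match lies 34 bases before the start, is among the lower ones and Isg15, with 3 overlapping matches, is level. The letters searched were GAAA, 2 bases of any kind and GAAA, on both strands, a core of the interferon-stimulated response element, in the 200 bases before the start (RefSeq, GRCm38.p6). Igtp lies on the plus strand at chr11:58199356-58199555, Ifit1 on the plus strand at chr19:34640689-34640888 and Isg15 on the minus strand at chr4:156200819-156201018. Capitals mark the matches, which in Ifit1 lie on the reverse strand.
Igtp: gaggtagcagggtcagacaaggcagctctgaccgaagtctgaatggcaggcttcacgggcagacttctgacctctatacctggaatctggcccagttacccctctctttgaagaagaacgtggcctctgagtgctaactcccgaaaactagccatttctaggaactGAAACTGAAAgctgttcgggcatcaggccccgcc
Ifit1: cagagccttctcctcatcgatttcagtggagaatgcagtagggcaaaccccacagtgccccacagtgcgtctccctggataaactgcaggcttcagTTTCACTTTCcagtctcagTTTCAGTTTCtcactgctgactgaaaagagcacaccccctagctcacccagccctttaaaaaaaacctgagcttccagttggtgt
Isg15: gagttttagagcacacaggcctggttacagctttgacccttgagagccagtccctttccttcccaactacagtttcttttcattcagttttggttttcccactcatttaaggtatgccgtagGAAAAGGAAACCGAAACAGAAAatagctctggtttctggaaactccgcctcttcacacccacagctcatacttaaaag
Igtp had 689 in DU6 and 1936 in DUKs, at least 1.89-fold lower in DU6, Ifit1 871 and 1404, at least 1.37-fold lower, and Isg15 a log2 ratio of -0.06. A match was found in 8 of 25 interferon-induced genes with a promoter in the table (32.0%), 2.73% of 2822 measured genes and 2.27% of 32851 promoters. The log2 ratios of these 8 genes ran from -0.92 in Igtp to 0.06 in Gbp2.

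Class I and class II antigen presentation had no common direction. In class I 7 of 14 genes lay above 0, beside 58.7% of all genes. H2-K1 had 14988 and 27347 (log2 ratio -0.87). The lipid-presenting Cd1d1 had 7663 and 3588 (2.14-fold higher, 1.99-fold after quantile normalisation). In class II H2-Eb1 had 884 in DU6 and 8626 in DUKs, at least 3.82-fold lower, and DU6i was also under the floor while DBA had 12279. By its second probe set the log2 ratio was -0.21. H2-Aa was covered by 5 probe sets, of which 4 had log2 ratios between -0.52 and -0.07 and 1 had 1.52. Cd74, the invariant chain, had 57727 and 50727 (0.19). Probe sets of these polymorphic genes thus disagreed with each other within the same pair of pools.

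Genes of iron and haem handling included 3 of 18 at least 2-fold higher in DU6 and none lower, with a median of 0.45. Of all genes 4.01% were higher and 5.3% lower. Hfe, a regulator of iron uptake, had 8183 in DU6 and 1232 in DUKs, at least 3.62-fold higher, and was above the floor in DU6i (8227) and not in DBA. Hmox1, the haem oxygenase of macrophages, had 4787 and 1999, 2.39-fold higher, and was higher in DU6 than in all 3 other lines. Uros, of haem synthesis, had 2296 and 1087 (2.11-fold), and Alas1 and Alad, of the same pathway, 27531 and 17827 (log2 ratio 0.63) and 30348 and 19262 (0.66). The iron stores Fth1 and Ftl1 had ratios of -0.55 and -0.25, with 0.24 for Fth1 by a second probe set. Hmox2, the constitutive haem oxygenase, went the other way, with 3591 and 7525, 2.10-fold lower in DU6.

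Antioxidant enzymes split into higher and lower members, 5 and 3 of 35 at 2-fold, beside 4.01% and 5.3% of all genes. Sod1, the cytosolic superoxide dismutase, had 12804 in DU6 and 4375 in DUKs, 2.93-fold higher, and DUKs was the low pool of the 4, with 12971 in DU6i and 14293 in DBA. Sod2, the mitochondrial form, had 19831 and 9342, 2.12-fold higher and 1.95-fold after quantile normalisation, again with DUKs below the other 2 lines. Gsto1 was 2.11-fold higher, also 1.95-fold after quantile normalisation, and Mgst2 at least 2.64-fold, the latter with 0.21 by a second probe set. Gpx4, which reduces lipid peroxides, had 14028 and 28257, 2.01-fold lower and 1.70-fold after quantile normalisation. Gstm5 was 2.06-fold lower, 1.86-fold after quantile normalisation, and had a log2 ratio of -1.20 by a second probe set.

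General cell functions were mostly level. Proteasome subunits (28 genes) had a median of 0.07 and no gene at 2-fold. The 39 ribosomal protein genes had a median of -0.29, which was 0.019 after quantile normalisation. Rpl41, the smallest of them, had 5063 and 15018, 2.97-fold lower, and ranged up to 51314 in DU6i. Immediate early genes had 14 of 19 above 0, beside 58.7% of all genes, with Egr2 at 6124 and 2661 (2.30-fold). Among 52 chaperones 9 were at least 2-fold lower, against 5.3% of all genes, and none higher. Above the floor were 51 in DUKs and 45 in DU6, and those under it in DU6 could only lie below 0. Of these 9, Dnajb3, Hspa4l, Clgn, Hspa1l and Hspa2 are also in the germ cell list.

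The actin probe sets contradicted each other. The probe set used for Actb had 16284 in DU6 and 3970 in DUKs, 4.10-fold higher, and 2 further sets had log2 ratios of 2.45 and 1.73. The 3′ actin control had 19391 and 29305 on chip A and 51202 and 57437 on chip B, lower in DU6 on both. The 3 higher sets carry the suffix that Affymetrix gave to sets that can match several members of a gene family. No direction is given for Actb.

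The gene list furthest from 0 by its median was that of testis and germ cells, whose transcripts were low in DU6. Of 44 listed testis and germ cell genes on the chips 30 were measured. Of these 30, 29 lay below 0 and 26 were at least 2-fold lower in DU6, beside 5.3% of all genes, with a median of -1.77 (-1.79 after quantile normalisation, -1.77 on chip A and -1.92 on chip B). All 30 were above the floor in DUKs and 14 in DU6. Members under the floor in DU6 could only lie below 0, so the counts and the median were in part fixed by this filter. The summed signal was 406921 in DUKs and 85798 in DU6. DBA had 165952 and DU6i 77047. DUKs was thus the pool with the most of these transcripts and DU6 and DU6i were those with the least. What part this difference has in the ratios of other genes was not tested.

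The promoters of 3 of these genes are shown because they carry, close to the start, the outer letters of a site like the one bound by CREM, the activator of haploid germ cell genes. No binding was measured. The letters TGA, 2 bases of any kind and TCA were searched on both strands in the 200 bases before the start (RefSeq, GRCm38.p6), and capitals mark the match. Prm1 lies on the minus strand at chr16:10796824-10797023, Tnp1 on the minus strand at chr1:73015900-73016099 and Pgk2 on the minus strand at chr17:40208610-40208809. The matches begin 64, 94 and 27 bases before the start.
Prm1: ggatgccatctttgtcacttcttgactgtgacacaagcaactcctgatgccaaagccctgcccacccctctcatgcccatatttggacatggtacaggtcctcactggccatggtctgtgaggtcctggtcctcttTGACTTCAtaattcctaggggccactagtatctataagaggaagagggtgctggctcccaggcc
Tnp1: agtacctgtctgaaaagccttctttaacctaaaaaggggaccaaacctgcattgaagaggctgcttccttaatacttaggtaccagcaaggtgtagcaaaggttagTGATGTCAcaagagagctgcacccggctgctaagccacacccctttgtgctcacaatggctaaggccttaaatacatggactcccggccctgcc
Pgk2: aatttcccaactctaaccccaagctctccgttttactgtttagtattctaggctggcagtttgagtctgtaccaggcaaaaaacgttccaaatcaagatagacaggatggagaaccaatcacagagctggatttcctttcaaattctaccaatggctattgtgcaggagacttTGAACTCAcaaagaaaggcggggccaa
A match was found in 8 of 22 germ cell genes with a promoter in the table (36.4%), 9.25% of 2822 measured genes and 10.2% of 32851 promoters. The 8 genes were Pgk2, Gapdhs, Meig1, Akap4, Prm1, Tnp1, Hspa1l and Tssk1, with log2 ratios from -2.29 to -1.27.

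The germ cell genes covered the late steps of sperm formation. Prm1 and Prm2, the protamines that replace histones in the sperm head, had 8576 and 28545 (3.33-fold lower in DU6) and 7051 and 32957 (4.67-fold). Tnp1, the transition protein that precedes them, had 14689 and 47073, 3.20-fold lower. Odf1, of the outer dense fibres of the tail, had 9670 and 44685 (4.62-fold), and Smcp, of the mitochondrial capsule of the midpiece, 8597 and 25694 (2.99-fold). These 5 were above the floor in both pools. Acr and Acrv1, of the acrosome, had 230 and 3730 and 163 and 3173, at least 3.65-fold and at least 3.10-fold lower, and were above the floor in DUKs alone of this pair. The sperm surface proteins Adam2, Adam3 and Adam5 were at least 4.45-fold, 4.51-fold and 4.02-fold lower.

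The germ cell forms of glycolytic enzymes followed the same order. Ldhc had 3450 in DU6 and 23076 in DUKs, 6.69-fold lower, Pgk2 1262 and 6180 (4.90-fold) and Gapdhs 1833 and 8690 (4.74-fold). Their counterparts in body cells, Ldha (42186 and 48191, a log2 ratio of -0.19) and Gapdh (57367 and 62158, -0.12), were nearly level. Of the chaperones, Dnajb3, a DnaJ protein of spermatids, had 2833 and 40844, 14.4-fold lower, and a log2 ratio of -3.92 by a second probe set. Hspa4l had 1388 and 11011, 7.93-fold lower, and Hspa2, of meiotic cells, 616 and 5618, at least 2.49-fold lower. Ddx4, a helicase of germ cells from early stages on, had 511 and 7198, at least 3.19-fold lower.

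Further genes with a known testis form, most of them outside the list, were also low in DU6. Cox8c, the testis form of a cytochrome oxidase subunit, had 1415 and 10517, 7.43-fold lower, and Tuba3a, a testis tubulin that is in the list, 4745 and 33082, 6.97-fold. Pabpc2, a poly(A)-binding protein of spermatids, had 1602 and 16236, at least 7.19-fold lower, with -2.09 by a second probe set. Cetn1, the testis centrin, was at least 4.55-fold lower. Dmrtb1, a regulator of the entry into meiosis, was 7.21-fold lower by 1 probe set and had 0.28 by another, and Akap1 was at least 9.14-fold lower by 1 and had 0.12 by another, so that these 2 have no settled difference.

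The germ cell list was not complete in either pool. The meiotic genes Sycp1, Sycp3 and Stra8, the early germ cell gene Dazl, and Star and Cyp11a1 of the hormone-making Leydig cells were under the floor in both. Cyp17a1 and Hsd3b1, also of Leydig cells, had 1117 and 2788 (2.50-fold lower) and 842 and 2793 (at least 2.73-fold lower). These 2 and Nr5a1, a regulator of steroid synthesis (971 and 2947, at least 2.88-fold lower), were the members of the steroid list at 2-fold, whose median was -0.57. All 13 measured genes of that list were above the floor in DUKs and 10 in DU6. Those under it in DU6 could only lie below 0. Hsd11b1, which activates glucocorticoid in fat, had 38440 and 61020, a log2 ratio of -0.67.

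Of 10 measured genes of the epididymis and male glands 3 lay above 0, 1 was higher and 4 were lower in DU6 by 2-fold or more (beside 4.01% and 5.3% of all genes), and the median was -0.59. All 10 were above the floor in DUKs and 8 in DU6, and those under it in DU6 could only lie below 0. Gpx5, the epididymal glutathione peroxidase, had 49126 in DU6 and 52044 in DUKs, and Adam7, of the epididymal duct, 19574 and 23896, so both were abundant and nearly level. Sbp, of the accessory glands, had 308 and 21028, at least 9.31-fold lower in DU6, and Spink1 639 and 5876, at least 2.60-fold lower. Clu, clusterin, had 11218 and 30355, 2.71-fold lower, and Wfdc2, a secreted protein of the epididymis, 1992 and 4200, 2.11-fold lower. Pemt, a methyltransferase of phospholipid synthesis in this list, was 2.20-fold higher. The summed signal of the list was 161204 in DU6 and 203393 in DUKs, and Azgp1, Crisp3, Defb1, Msmb, Ros1, Svs2, Svs4, Svs5 and Svs6 were under the floor in both. Mesothelial and epithelial markers, 18 measured, had a median of 0.32, with Krt8 at 12163 and 6152 (0.98, and 0.43 by a second probe set).

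**Figure D3:**
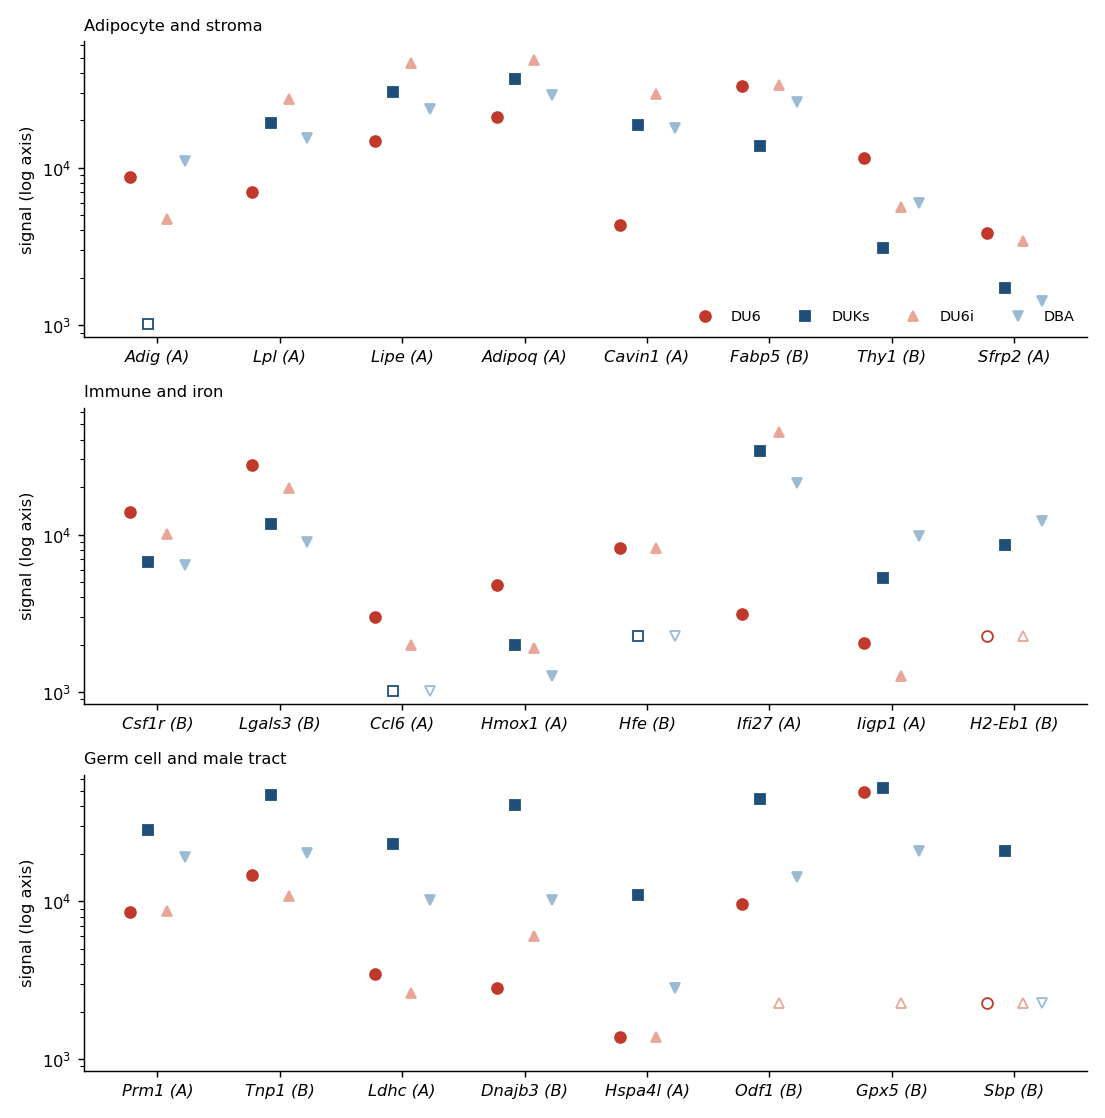
Signals (log axis) of 24 genes in the pools of DU6, DUKs, DU6i and DBA, with the chip in brackets and 1 pool per point, so that there are no error bars. Open symbols at the floor (1022.8 on chip A, 2258.25 on chip B) are signals at or under it. Ifi27, Cavin1 and Lpl are low in DU6 alone, Adig is under the floor in DUKs alone, and Prm1, Tnp1, Ldhc, Dnajb3, Hspa4l and Odf1 are highest in DUKs.

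Which of the pools stood apart was read from the signals of all 4 lines, counting a pool as apart when it lay at least 2-fold outside the range of the other 3. The genes were grouped by the ratio of DU6 over DUKs. A pool of this pair that stands apart differs from the other by at least 2-fold, so its counts hold for all measured genes. How often DU6i or DBA stood apart was not counted. Of the 186 genes lower in DU6, DUKs alone was apart (above the others) for 77, DU6 alone (below the others) for 17, both for 2 and neither for 90. In 81 of the 186 DU6 was set to the floor and could be below only where the other 3 lines were at least 2-fold above the floor. The counts of DUKs and DU6 are therefore not on equal terms. The DU6 array of chip A also had the lowest 99th percentile of the 4 lines, and its part in these counts was not tested. Of the 26 germ cell genes among them DUKs alone was apart for 23. Without the germ cell and male tract lists DUKs alone was apart for 52 of 156 and DU6 alone for 17. The 17 with DU6 alone included Ifi27, Cavin1, Lpl, Scarb1, Cd34, Klf2, Rpl41 and the motor protein gene Kif5b. Of the 141 higher genes DU6 alone was apart (above) for 5, which were Ntsr2, S100a13, Hmox1, Adam8 and Ifitm10, and DUKs alone (below) for 10. The 10 were Adig, 1110008P14Rik, Cox8b, Tgfb1i1, Tnfrsf21, Pmm1, Sod1, Ankrd46, Hes6 and Slc39a9.

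Further genes stood out in metabolism and signalling, most of them in none of the lists. Ntsr2, a neurotensin receptor, had 8457 in DU6 and 455 in DUKs, at least 8.27-fold higher, with 58 in DU6i and a signal below 0 in DBA. Tnfrsf21, a death receptor, had 6918 and 2147, 3.22-fold higher, and Pmm1, a mannose-phosphate mutase of glycosylation, 4565 and 1423, 3.21-fold higher. For both of these DUKs was the low pool, and the other 3 lines lay close to each other. Slc6a13, which carries GABA and taurine into cells, had 3987 and 1260 (3.16-fold), and Fam20c, a kinase of secreted proteins, 4121 and 764 (at least 4.03-fold). Xdh, xanthine oxidoreductase, had 7653 and 22462, 2.93-fold lower in DU6. Gpat4, which starts glycerolipid synthesis, had 1220 and 5016, 4.11-fold lower.

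A further probe set was measured for 48 genes at 2-fold or more. It had the same direction in 35 of the 48 and was also past 2-fold in 17. Fmod, Dnajb3, Pabpc2, Saa3 and Gstm5 were among these 17. The probe sets of Dnajb3 share a sequence identifier, as do those of Dnajb9, so such pairs are not independent. Eef1a1, an elongation factor, was 2.03-fold higher by its brightest set and had -1.07, -0.23 and -0.02 by 3 others.

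**Figure D4:**
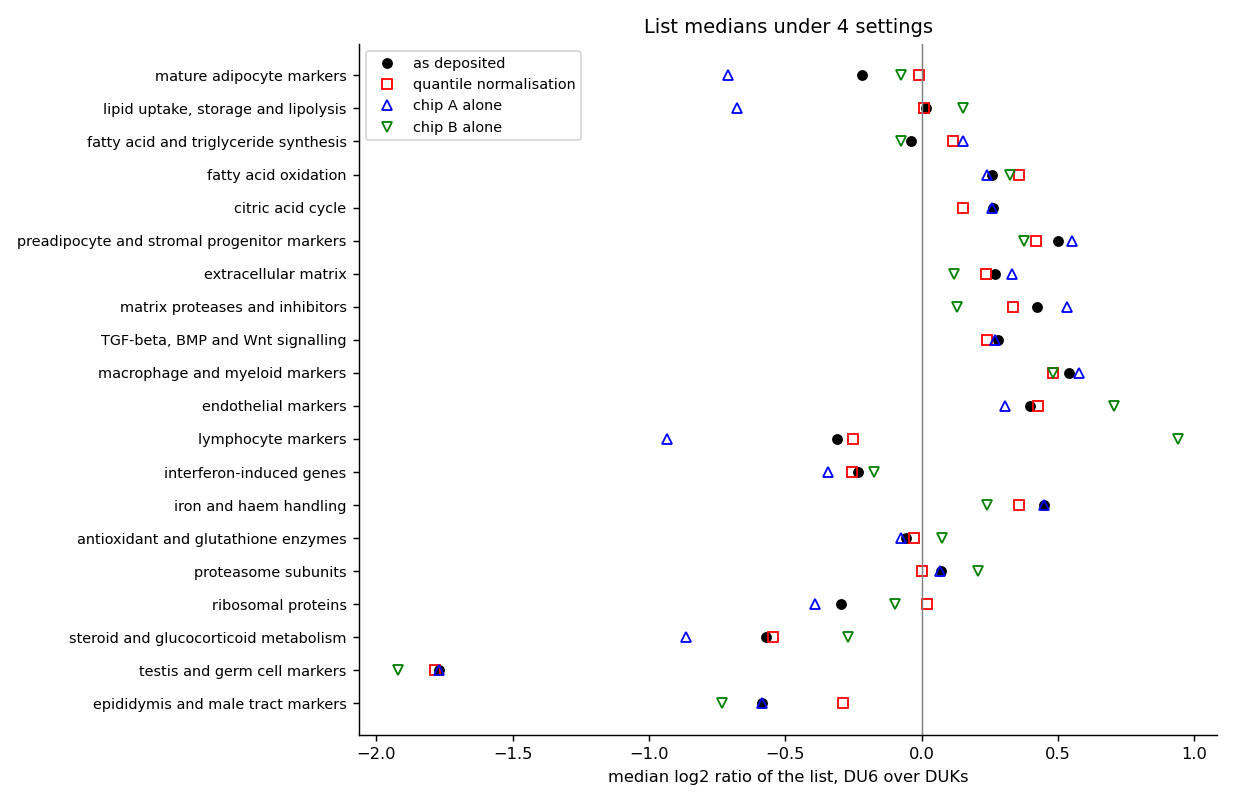
Median log2 ratio of DU6 over DUKs for 20 gene lists (rows) with the deposited signals, after quantile normalisation, and on each chip alone where at least 3 genes were measured. The germ cell median lies between -1.92 and -1.77 and the macrophage median between 0.48 and 0.58, while the adipocyte median runs from -0.71 on chip A to -0.0097 after quantile normalisation.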

How the data were processed

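Labelled cRNA of each pool was hybridised to chips A and B. Per the labels, the authors derived the deposited signal intensity with Affymetrix software (Microarray Suite 4.0.1, Data Mining Tool 1.2) after scaling every chip on all probe sets. These intensity values are linear, the detection calls were not used here, and the scaling target and genome build are not given in the sources used here. Arrays were compared within a chip, with 110 control probe sets left out, and the rules on the floor, the ratio and the error are given with the results. Probe sets took gene symbols from the platform annotation, and 5560 on chip A and 2001 on chip B had 1 symbol. The members, the 44 gene lists and the motifs were chosen with earlier results of these data known, and the reading of which pool stood apart was added after the values were seen. The named genes are the 20 highest and 20 lowest measured in both pools, the 10 largest bounds in each direction, list members at 2-fold, the 2 brightest genes of each list and a set of 46 chosen genes, of which 3 have no measured value. Other genes of the lists were named as examples after their values were seen. Alternatives were quantile normalisation, rescaling, centring, other floors, log2(signal + floor), no filter, each chip alone and the mean over probe sets. Python 3.11.15 with numpy 2.4.6 and pandas 2.3.3 was used, and the counting code was tested on simulated data.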

Additional observations from a re-analysis of the deposited data

Results flagged for a closer look

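For 19 of the named genes at 2-fold or more between DU6 and DUKs, the pair of DU6i and DBA pools differed by 2-fold or more in the opposite direction. In 11 of them at least 1 of the 4 pools was at or under the floor, and the other 8, above it in all 4, are given here. The difference between the pairs was not tested, because each line is 1 pool. The chip A arrays of the pairs also differed in opposite directions. Their 99th percentile was 18810 in DU6 and 27552 in DUKs, but 34793 in DU6i and 23450 in DBA. The middle pyruvate carboxylase signal was 15.3% of the 3′ one in DU6 and 53.9% in DUKs, but 54.5% in DU6i and 19.5% in DBA. What part this has in the 8 genes was not tested. Lower in DU6 than in DUKs but higher in DU6i than in DBA were Rpl41 (log2 ratio of DU6i over DBA 2.20), Xdh (1.37), Gpat4 (1.27), Igfbp7 (1.10) and Ifi27 (1.08). Higher in DU6 than in DUKs but lower in DU6i than in DBA were the complement inhibitor gene C4bp (-3.50), Fmod (-1.59) and Elovl6 (-1.02).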

How the results depend on the processing

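Limits come first. With 1 pool per line no ratio has an error between animals, dim genes have only bounds, and bright chip A signals depend on the scaling. No paired analysis was possible because each line has 1 pool and no replicate.

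Of the list medians under the alternatives, 459 stayed within the technical error, 11 moved by more, and 3 medians of 0.2 or more in size changed sign; of the named genes' values 1894 stayed, 180 moved, and 1 at 2-fold changed sign. Counting small values as well, 34 of 473 list values and 22 of 2075 gene values had the other sign. Counts of higher and lower probe sets were 368 and 612 with the floor halved and 98 and 170 with it doubled. With log2(signal + floor) 108 were higher, and with both arrays above the floor 207 were lower. Chip A alone had 119 and 208 and chip B alone 100 and 145, since each holds fewer probe sets. On chip A alone the medians were -0.71 for mature adipocyte, -0.76 for neutrophil and mast cell, -0.93 for lymphocyte, -0.79 for glycolysis and -0.68 for lipid uptake genes. On chip B alone they were 0.94 for lymphocyte markers, a change of sign, and 0.68 for cholesterol genes. The germ cell median was -2.27 with the floor halved, -1.16 with it doubled and -2.23 with both arrays above it. That of red blood cell markers was -0.036 with the floor doubled, and that of ribosomal protein genes 0.019 after quantile normalisation, both changes of sign. With no filter the epididymis and steroid medians were 0.00. The log2 ratio of Eef1a1 was -0.074 as a mean over probe sets, a change of sign. Where not stated, the cause was not tested. Of the 153 named genes at 2-fold, 139 stayed so after quantile normalisation, 141 after centring, 91 with the floor doubled and 99 with log2(signal + floor), and all 153 kept their direction under these 4.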
